A study of Mus musculus with 18 samples.

Results

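Collagens and laminins are the chains from which cells build the extracellular matrix, and their transcripts were followed here through the differentiation of mouse embryonic stem (ES) cells into motor neurons. Members were all genes whose symbol is that of a collagen alpha chain or of a laminin alpha, beta or gamma chain, without regard to their values. On the arrays 52 such genes were measured, 42 collagens and 10 laminins, of 18193 genes in all, with 101 probe sets between them. Each gene was read on its brightest probe set, taken by the mean of the 18 arrays, and all values are log2 signals. The probe sets differ in brightness, so levels were compared only within a gene.

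HBG3 is a single ES line, derived from a mouse that carries green fluorescent protein under the promoter of the motor neuron gene Mnx1, and every array came from it. It was profiled as ES cells at day 0 (3 arrays), as embryoid bodies at day 2 (4 arrays), as embryoid bodies given 8 h of retinoic acid (RA) after day 2 (2 arrays), as neural precursors at day 3 (3 arrays), as progenitor motor neurons at day 4 (3 arrays) and as postmitotic motor neurons at day 7 (3 arrays). From day 2 onward the cultures received RA with a hedgehog agonist, so day 0 and day 2 carry neither, and whether the agonist was already present in the 8 h arrays is not settled by the sources used here. ES cells were expanded on feeder cells and moved to gelatin for experiments, and no sorting step is described, so each array measures all cells of a culture. The study's methods give 3 biological replicates per time point, whereas 4 arrays at day 2 and 2 with RA were used here.

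Type I and type III collagens, with the minor type V chains, form the fibrils of connective tissue and are made mainly by fibroblasts and other mesenchymal cells. A laminin is a heterotrimer of an alpha, a beta and a gamma chain, and laminin sheets and type IV collagen networks, bridged by nidogen and perlecan, make up the basement membrane on which epithelia, including the neuroepithelium, rest. The alpha1, beta1 and gamma1 laminin chains and the alpha1 and alpha2 chains of type IV collagen belong to the earliest basement membranes of the mouse embryo. Other members sit on fibril surfaces (types IX, XII and XIV), in the cell membrane (types XIII, XVII, XXIII and XXV) or carry long glycosaminoglycan-bearing ends (types XV and XVIII).

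Stage markers followed the labels. The pluripotency factor Nanog averaged 4.35 at day 7 and 13.05 at day 0, and the motor neuron factor Isl1 averaged 11.58 at day 7 and 4.05 at day 0. The acetylcholine-synthesising enzyme gene Chat, a defining motor neuron marker, stayed under 4 on every array, while the vesicular acetylcholine transporter gene Slc18a3 read 6.40, 6.85 and 7.86 at day 7. Signals under 4 were treated as background, which on any array covers 55.2% to 56.9% of all probe sets. In RNA from whole cultures, fewer cells of a type and less RNA per cell cannot be told apart, and this holds for every difference below.

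Of the 52 chains, 22 (42.3%) were at 4 or above on all arrays of at least 1 stage, against 62.5% of all genes. The 8 that were so at every stage were Col18a1, Col22a1, Col4a1, Col4a2, Col5a1, Lamb1, Lamb2 and Lamc1. The number of chains above background on all arrays of a stage was 15 at day 0, 12 at day 2, 15 with RA, 16 at day 3, 14 at day 4 and 19 at day 7. By role, 6 of 11 fibrillar collagens, 3 of 6 type IV collagens, 3 of 9 collagens of the fibril-associated group, 2 of 4 transmembrane collagens, 3 of 5 laminin alpha chains, 2 of 3 beta chains and 1 of 2 gamma chains passed. None of the 6 type VI and VII chains and none of the 3 short-chain network collagens (types VIII and X) did.

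**Figure D1:**
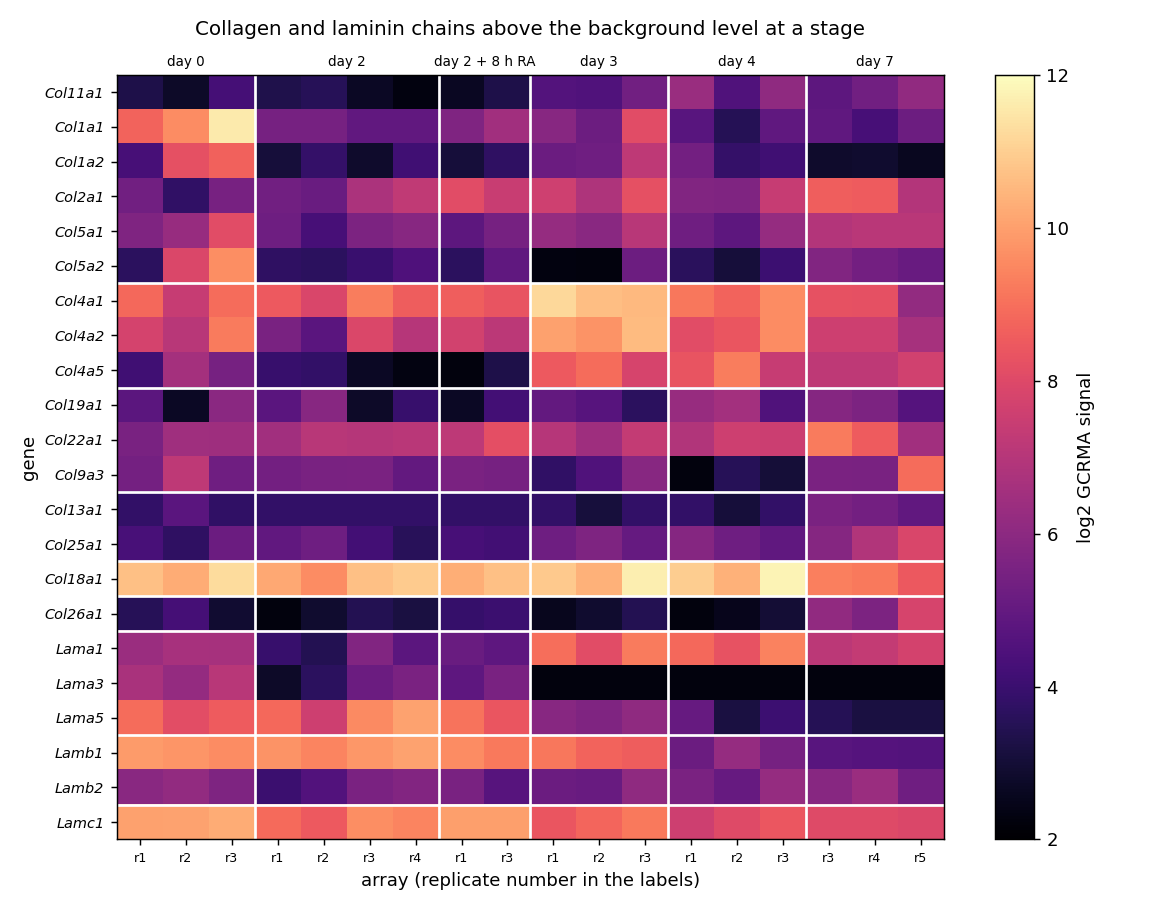
Log2 GCRMA signal (colour, 2 to 12) of the 22 chains that were at 4 or above on all arrays of a stage, in 18 arrays ordered by stage and replicate number, with white lines between stages and between role groups. Col1a2 and Col5a2 stand high on day 0 replicates 2 and 3 and not on replicate 1, Lama3 is dark from day 3 onward, Lama1 and Col4a5 brighten at day 3, and Lamb1 dims at day 4.

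The 30 chains that did not pass were Col3a1, Col5a3, Col11a2, Col24a1 and Col27a1 of the fibrillar group, Col4a3, Col4a4 and Col4a6 of type IV, Col6a1 to Col6a5, Col7a1, Col8a1, Col8a2 and Col10a1, Col9a1, Col9a2, Col12a1, Col14a1, Col16a1 and Col20a1, Col17a1 and Col23a1, Col15a1, and the laminin chains Lama2, Lama4, Lamb3 and Lamc3. Some of them were bright on single arrays, as described below for day 0. Others, such as Col10a1 (hypertrophic cartilage), Col14a1 and Col17a1 (epithelial hemidesmosomes), lay within 2.24 to 2.27 on all 18 arrays.

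Over the 6 stages 13 chains varied by limma's moderated F test (adjusted p under 0.01 over 45037 probe sets, and at least 2-fold between the highest and lowest stage means), which is 25% of the members, against 32.2% of all genes. They were Col1a1, Col5a3, Col11a1, Col4a1, Col4a5, Col9a1, Col13a1 and Col26a1 among the collagens and Lama1, Lama3, Lama5, Lamb1 and Lamc1 among the laminins. The strongest by adjusted p was Lamb1 (4.51e-09), followed by Lama5 (4.81e-06), Lama1 (2.2e-05) and Col4a5 (2.39e-05). In the comparisons that follow, a chain was called with the same thresholds, by limma's test on a fit of 6 stage means to all 18 arrays with Benjamini-Hochberg adjustment.

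Embryoid bodies at day 2 had far less of the fibrillar collagen transcript Col1a1 than ES cells at day 0. Col1a1, the alpha1 chain of type I collagen, read 5.45, 5.44, 4.93 and 4.93 at day 2, against 8.76, 9.62 and 11.58 at day 0. Every day 2 array lay below every day 0 array, and the log2 fold change was -4.79 ± 0.72 (limma SE), with an adjusted p of 0.00138. A dimmer Col1a1 probe set gave the same call. The only other call was Col5a3, a minor type V chain, at 2.27 to 2.34 at day 2 and 4.02, 3.37 and 2.82 at day 0 (adjusted p = 0.00477). Since its values lie near the lowest on the arrays and 4.02 is its highest, no size of change is given for it, and its call was lost without day 0 replicate 1 or 2 or any 1 day 2 array. Calls thus numbered 0 higher and 2 lower of 52 chains (0% and 3.85%), beside 1.67% higher and 2.15% lower of all 18193 genes. At an unadjusted p under 0.05 with at least 2-fold, 0 chains were higher and 14 lower, beside 4.38% and 6% of all genes.

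Many connective tissue collagens were split within the day 0 group. Col1a2, the partner chain in type I collagen, read 4.28, 8.25 and 8.71 on day 0 replicates 1, 2 and 3, with 2.83 to 4.13 at day 2. Col5a2 of type V read 3.67, 7.93 and 9.62 at day 0, and Col3a1, the type III chain, 2.25, 6.57 and 5.49. Replicates 2 and 3 were high in each case and replicate 1 was near its day 2 values. The type VI chains, which form beaded filaments, followed the same split, with Col6a1 at 2.24, 6.66 and 7.39, Col6a2 at 2.86, 4.98 and 5.81 and Col6a3 at 2.24, 5.93 and 3.83 on the day 0 arrays. Col8a1, a short-chain network collagen of blood vessels and cornea, read 2.24, 8.28 and 6.84 and stayed at 2.24 to 2.31 on all later arrays. Col12a1, on fibril surfaces, read 2.29, 3.78 and 4.93.

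In all, 8 chains were over 2 log2 units higher in the mean of day 0 replicates 2 and 3 than in replicate 1 (15.4% of chains, against 1.28% of all genes), and 0 were over 2 units lower. Col1a1 was high on all 3 of these arrays. Outside the chains, the collagen crosslinking enzyme gene Lox read 3.51, 10.17 and 10.16 on the day 0 arrays, the mesenchymal transcription factor genes Prrx1 and Twist2 read 2.26, 9.21 and 5.30 and 2.26, 7.37 and 5.38, and the collagen receptor gene Ddr2 read 2.49, 7.78 and 4.32. These 4 genes were picked after their values were seen, and each had the chains' split. Of the whole list of 13 fibroblast markers measured, 5 were at 4 or above on all day 0 arrays (Twist1, Mfap5, Acta2, Tagln and Thbs2) and 4 were under it on all of them. Among the defining fibroblast genes Lum, Fap and Ogn lay at 2.24 to 2.28 at day 0, and Dcn read 5.64, 2.99 and 4.62. The summed linear signal of that list was 493 to 4210 on the day 2 arrays and 687 to 5963 on the day 0 arrays. Which cells these transcripts came from was not tested.

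**Figure D2:**
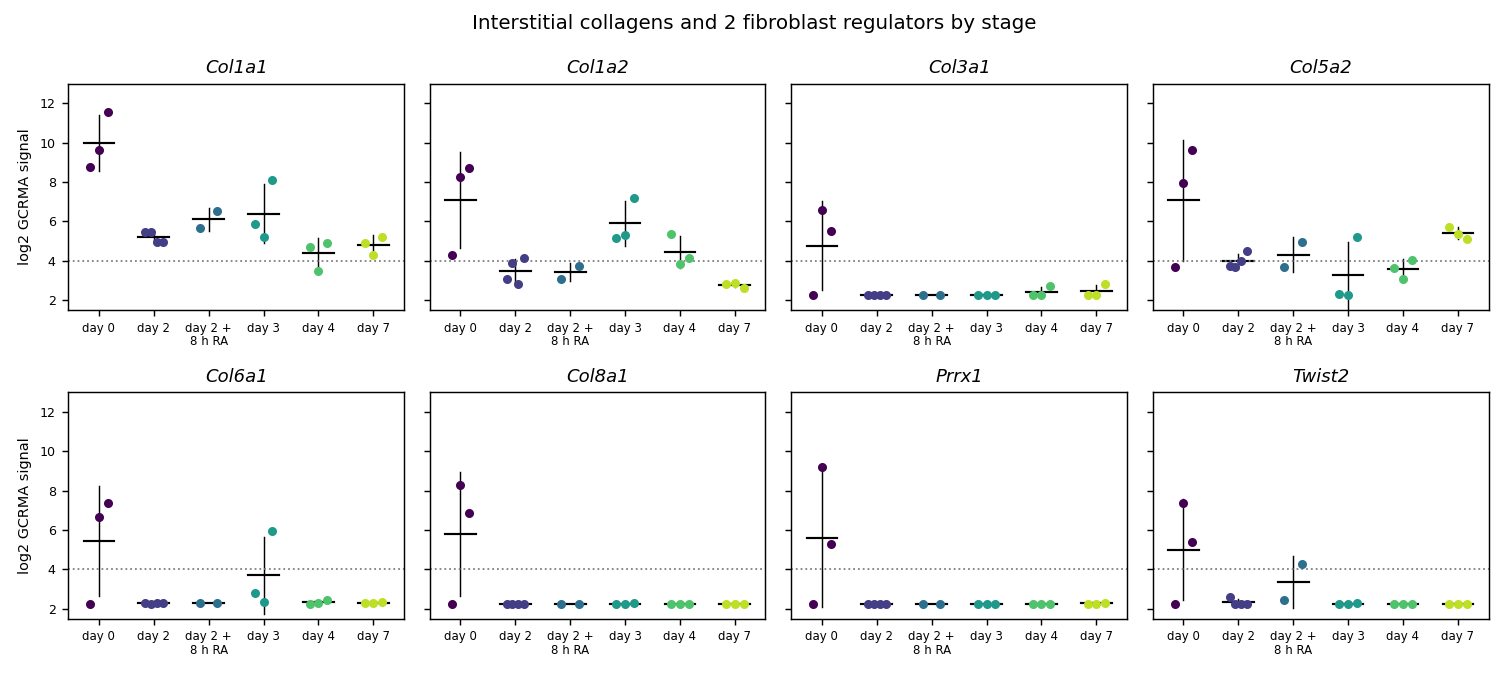
Log2 GCRMA signal of 6 connective tissue collagens and of the transcription factor genes Prrx1 and Twist2 by stage, 1 point per array in replicate order from left to right, with the stage mean (bar), SD (vertical line) and background level (dotted). At day 0, Col1a2, Col3a1, Col5a2, Col6a1, Col8a1, Prrx1 and Twist2 are high on replicates 2 and 3 and low on replicate 1, and Col1a1 is high on all 3.

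Which chains were called against day 0 turned on these arrays. Without day 0 replicate 1, the chains lower at day 2 numbered 7 (Col1a1, Col1a2, Col3a1, Col5a2, Col6a1, Col6a3 and Col8a1). For this and every other fit that leaves arrays out, the share of all genes called was not counted. Whether such a change in number is particular to the chains therefore cannot be told. Without replicates 2 and 3 together, Col5a3 alone was called, and Col1a1 had a log2 fold change of -3.57 and an adjusted p of 0.0388. That fit has 1 day 0 array, which is assumed to vary like the other groups. For Col1a1 the call was lost on leaving out day 0 replicates 2 and 3 or day 2 replicates 3 and 4 (adjusted p between 0.0205 and 0.0388).

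No laminin chain was called between day 0 and day 2, and the median log2 fold change of the 10 was -0.14, against 0 for all genes. The nearest to the threshold were 3 chains: Lama1 averaged 4.49 at day 2 and 6.55 at day 0 (adjusted p = 0.0199), Lama3 4.29 and 6.66 (adjusted p = 0.0183) and Lamc1 9.11 and 10.12 (adjusted p = 0.0484), with the day 2 arrays below the day 0 arrays for all 3. Lama5 averaged 9.01 at day 2 and 8.55 at day 0, and Lamb1 9.77 and 9.76. Day 2 itself was uneven: Lama3 read 2.74 and 3.67 on replicates 1 and 2 and 5.18 and 5.57 on replicates 3 and 4, and Col4a2 read 5.54 and 4.77 on the first pair and 7.93 and 7.00 on the second. Those were the only 2 chains with a difference of over 2 log2 units between the pairs (3.85% of chains, 0.72% of all genes). The actin genes of muscle moved with them, Actc1 at 2.42, 2.42, 7.85 and 8.24 and Acta1 at 2.24, 2.24, 7.11 and 6.52 on replicates 1 to 4, while the muscle factors Myod1 and Myog stayed under 4. Of the 10 muscle genes on the list, only Myh6 was at 4 or above on all day 2 arrays, and the summed linear signal of the list ran from 98.2 to 615. Their part in the laminin values was not tested.

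After 8 h of RA no chain was called, beside 0.308% of all genes higher and 0.0605% lower than at day 2. No chain reached 2-fold at an unadjusted p under 0.05 in either direction, beside 2.07% higher and 0.544% lower of all genes. Lamc1, the gamma1 laminin chain, came nearest, with a mean of 9.99 over both RA arrays and 8.89, 8.49, 9.62 and 9.42 at day 2 (log2 fold change 0.88 ± 0.31, adjusted p = 0.741). Both RA arrays lay above the day 2 arrays, and the 95% interval of the difference ran from 0.22 to 1.54. The type IV chains Col4a1 and Col4a2 read 8.62 and 8.33 and 7.68 and 7.13 with RA, within the range of the day 2 arrays. With 2 RA arrays, and with medium exchanged on day 2 and no untreated 8 h sample among those used, the comparison cannot separate RA from the other changes made at that time.

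Between day 2 and day 3, 4 chains were called. Col4a5, Lama1 and Col4a2 rose and Lama5 fell, while Lamb1 and Lamc1, the beta1 and gamma1 partners of both alpha chains, were not called. Lamb1 was lower on every day 3 array than on any at day 2 (log2 fold change -0.94 ± 0.23, adjusted p = 0.0212). The calls are 3 chains higher and 1 lower of 52 (5.77% and 1.92%), beside 3.4% and 3.22% of all genes, shares near those of the chains. Same-numbered arrays of day 2, day 3 and day 4 deviated together from their stage means. With the replicate number as a block in the fit to all arrays the 4 calls held. With that block in a fit to day 2 and day 3 alone none did (adjusted p = 0.0415 for Col4a5, 0.0878 for Lama1, 0.144 for Lama5 and 0.149 for Col4a2).

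Lama1, the alpha1 laminin chain, read 8.96, 8.12 and 9.23 at day 3, against 3.93, 3.48, 5.74 and 4.81 at day 2. All day 3 arrays were above all day 2 arrays, and the log2 fold change was 4.28 ± 0.46 (adjusted p = 6.27e-05), a 19.4-fold difference. Lama5, the alpha5 chain, moved the other way, with 5.90, 5.69 and 6.07 at day 3 and 8.84, 7.57, 9.57 and 10.05 at day 2. The groups did not overlap, and the log2 fold change was -3.12 ± 0.53 (adjusted p = 0.00209, 8.70-fold lower at day 3). For Lama5 the call was lost on leaving out day 2 replicates 3 and 4, day 3 replicate 1 or day 3 replicate 2 (adjusted p between 0.0108 and 0.0225). A second Lama5 probe set gave the same call and another, which lay near the lowest values, did not. Lama3, the alpha chain of epithelial anchoring laminin, lay at 2.24 on all 3 arrays at day 3, below each day 2 array, but missed the threshold (adjusted p = 0.0278).

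Of the 6 type IV collagen chains 2 were called higher at day 3, Col4a2 and Col4a5. Col4a2, the alpha2 chain, read 10.02, 9.75 and 10.56 at day 3, against 5.54, 4.77, 7.93 and 7.00 at day 2 (log2 fold change 3.80 ± 0.71, adjusted p = 0.00425, 13.9-fold). For Col4a2 the call was lost on leaving out day 2 replicate 1, day 2 replicates 1 and 2, day 3 replicate 1, day 3 replicate 2 or day 3 replicate 3 (adjusted p between 0.0141 and 0.0253). Col4a1, with which it forms the common type IV heterotrimer, read 11.20, 10.66 and 10.55 at day 3 and 8.51, 7.88, 9.28 and 8.59 at day 2. Its groups did not overlap either, but on the brightest probe set the log2 fold change of 2.24 ± 0.53 had an adjusted p of 0.0186, whereas on the dimmer probe set it was 2.57 ± 0.53 with an adjusted p of 0.00821. Both chains of that heterotrimer were thus higher at day 3 on every array, and the call for Col4a1 depended on the probe set.

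Col4a5, an X-linked alpha chain of the networks found in kidney and other specialised basement membranes, had the largest difference among the chains at this step. It read 8.49, 8.93 and 7.80 at day 3, against 3.92, 3.82, 2.68 and 2.34 at day 2, where every array was under the background level. The log2 fold change was 5.21 ± 0.61 (adjusted p = 0.000127), and with the day 2 mean set to 4 the difference was at least 21.2-fold. Its partners in those networks did not accompany it above background: Col4a3 lay at 2.24 on all 18 arrays, Col4a4 reached at most 2.53, and Col4a6, with which Col4a5 also assembles, read 2.89, 2.86 and 4.59 at day 3 and 2.25 at day 2 (adjusted p = 0.0531).

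**Figure D3:**
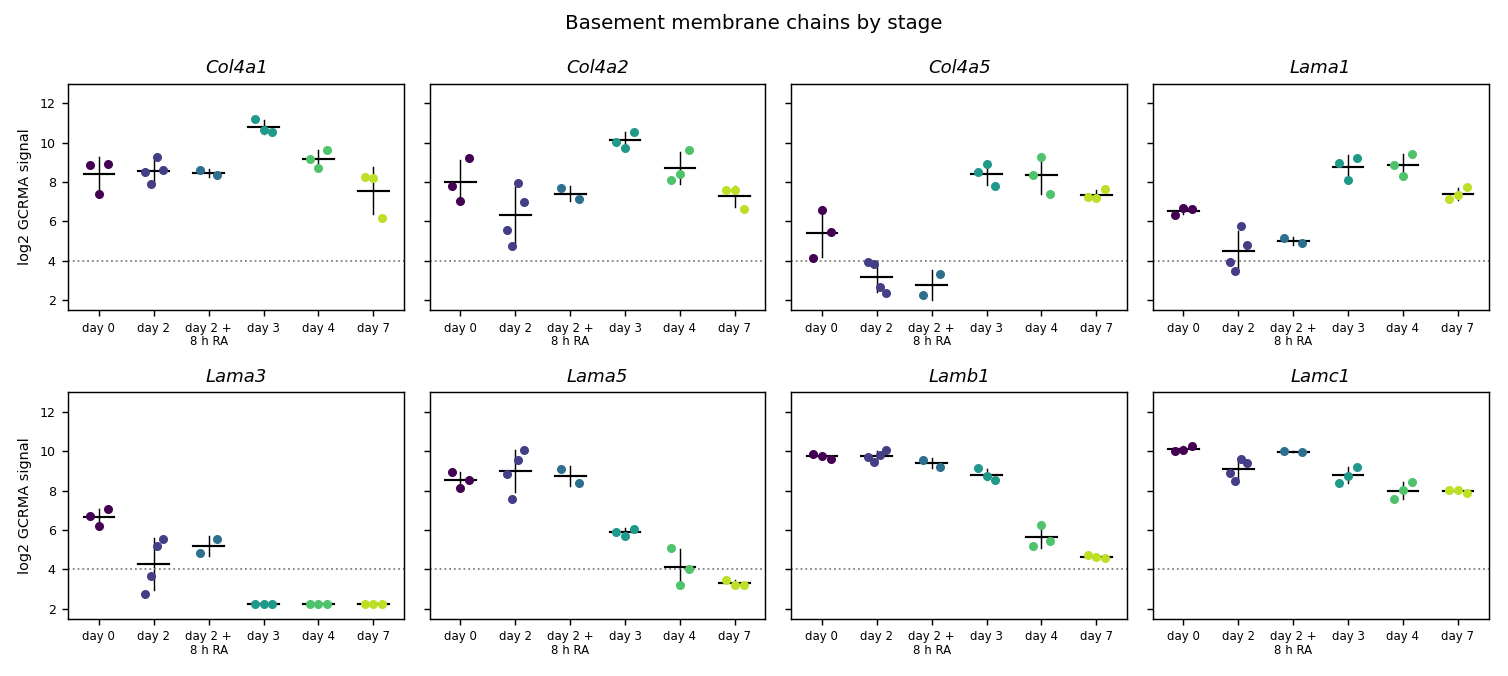
Log2 GCRMA signal of 3 type IV collagen chains and 5 laminin chains by stage, 1 point per array in replicate order from left to right, with the stage mean (bar), SD (vertical line) and background level (dotted). Col4a2, Col4a5 and Lama1 step up between day 2 and day 3, Lama5 steps down there, and Lamb1 steps down between day 3 and day 4.

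Because chains of 1 trimer can lie next to each other in the genome, the starts of the type IV genes were read from RefSeq on build GRCm38.p6. Col4a1 and Col4a2 lie head to head on chromosome 8, with Col4a1 on the minus and Col4a2 on the plus strand. The starts used for their promoter windows are 21 bases apart. The 300-base windows (250 bases before the start and 50 from it on) therefore share 78 bases. The Col4a1 start (11312826) has the higher coordinate and the Col4a2 start (11312805) the lower, so the annotated 5′ ends overlap. Col4a6 on the minus strand and Col4a5 on the plus strand also lie head to head, on chromosome X. Their starts are 1343 bases apart with a gap between them, and of this pair only Col4a5 rose above background on all day 3 arrays. A window was found for 38 of the 52 chains, and none for Lama1 or Lamc1. The windows of 4 called basement membrane chains are shown to place the proximal promoter of the genes that changed, Col4a2 (chr8:11312555-11312854, plus strand), Col4a5 (chrX:141475169-141475468, plus strand), Lama5 (chr2:180225810-180226109, minus strand) and Lamb1 (chr12:31265043-31265342, plus strand), each 5′ to 3′ on the gene's strand. Capitals mark GC boxes (GGGCGG or, on the other strand, CCGCCC) and CCAAT boxes (CCAAT or ATTGG), and the 2 kinds overlap nowhere in these windows.
Col4a2: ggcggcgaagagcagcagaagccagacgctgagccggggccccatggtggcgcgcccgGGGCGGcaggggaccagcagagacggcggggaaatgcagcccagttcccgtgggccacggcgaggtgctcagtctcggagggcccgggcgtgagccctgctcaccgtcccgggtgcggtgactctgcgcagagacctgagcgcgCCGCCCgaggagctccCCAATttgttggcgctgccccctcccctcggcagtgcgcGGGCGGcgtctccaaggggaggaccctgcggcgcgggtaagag
Col4a5: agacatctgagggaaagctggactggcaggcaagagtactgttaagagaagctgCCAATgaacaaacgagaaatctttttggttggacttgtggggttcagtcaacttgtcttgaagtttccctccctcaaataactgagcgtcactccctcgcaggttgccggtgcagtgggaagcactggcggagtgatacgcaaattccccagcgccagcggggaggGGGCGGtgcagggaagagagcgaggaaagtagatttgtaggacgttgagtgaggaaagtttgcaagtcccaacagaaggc
Lama5: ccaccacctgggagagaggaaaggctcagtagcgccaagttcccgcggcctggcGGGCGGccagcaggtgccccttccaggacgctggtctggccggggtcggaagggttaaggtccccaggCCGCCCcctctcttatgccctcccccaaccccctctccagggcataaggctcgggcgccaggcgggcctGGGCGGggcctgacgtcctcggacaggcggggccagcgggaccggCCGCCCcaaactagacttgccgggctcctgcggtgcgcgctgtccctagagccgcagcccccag
Lamb1: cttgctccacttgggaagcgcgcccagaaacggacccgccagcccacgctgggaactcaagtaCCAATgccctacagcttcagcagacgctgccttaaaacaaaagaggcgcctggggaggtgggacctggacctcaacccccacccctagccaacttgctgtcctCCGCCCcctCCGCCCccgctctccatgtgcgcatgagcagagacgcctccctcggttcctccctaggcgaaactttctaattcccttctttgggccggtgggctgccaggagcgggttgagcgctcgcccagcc

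The GC box occurred 3 times in the window of Col4a2, once in that of Col4a5, 4 times in that of Lama5 and 2 times in that of Lamb1, and 35.7% of all 32851 windows hold at least 1. A CCAAT box was found once each for Col4a2, Col4a5 and Lamb1 and not for Lama5, with 37.4% of all windows holding 1. Neither the TATA letters TATAAA (13.6% of windows, both strands) nor the hormone receptor motif AGGTCA (16.3%) occurred in any of the 4. Of the 3 windows of genes called at day 3, those of the rising Col4a2 and Col4a5 and that of the falling Lama5 all hold GC boxes.

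At day 4 the beta1 laminin chain fell. Lamb1 read 5.19, 6.26 and 5.45 at day 4, against 9.15, 8.74 and 8.57 at day 3, with a log2 fold change of -3.19 ± 0.24 (adjusted p = 1.37e-05), 9.12-fold lower. With the replicate block the adjusted p was 0.00106 in the fit to all arrays and 0.223 in a fit to day 3 and day 4 alone. It was the only chain called at this step, 1 lower of 52 (1.92%) and 0 higher, beside 0.715% and 0.506% of all genes. At an unadjusted p under 0.05 with at least 2-fold, 5 chains were lower and 0 higher, beside 3.36% and 2.07% of all genes. Of 3 dimmer Lamb1 probe sets 1 gave the same call. The alpha1 chain did not follow: Lama1 read 8.87, 8.30 and 9.41 at day 4, with an interval of the log2 difference from day 3 of -0.98 to 1.16. Lamc1 averaged 8.01 at day 4 and 8.80 at day 3 (adjusted p = 0.405), and Lama5 read 5.08, 3.19 and 4.04 at day 4, all below its day 3 values, with an adjusted p of 0.247.

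Over the whole course 4 of the 10 laminin chains were lower in day 7 cells than in ES cells, and none was higher (40% and 0%), beside 13.9% and 14.3% of all genes. Lamb1 read 4.73, 4.63 and 4.58 at day 7, against 9.89, 9.78 and 9.61 at day 0 (log2 fold change -5.12 ± 0.24, adjusted p = 3.97e-09, 34.7-fold lower). Lama5 read 3.49, 3.19 and 3.19 at day 7, under the background level, against 8.94, 8.16 and 8.54 at day 0, at least 23.4-fold lower (adjusted p = 7.95e-06). Lamc1 had the smallest of these differences, at 8.03, 8.03 and 7.90 at day 7 and 10.03, 10.06 and 10.27 at day 0 (log2 fold change -2.13 ± 0.29, adjusted p = 6.2e-05), and its dimmer probe set, at -2.73, was not called. Lama3 lay at 2.24 on every array from day 3 onward and at 6.71, 6.19 and 7.06 at day 0, at least 6.30-fold lower at day 7 (adjusted p = 3.44e-05). Its second probe set lay near the lowest value on all arrays and showed no difference.

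The stage means of these chains, between which no difference was tested, are given side by side. By stage from day 0 to day 7, with RA after day 2, Lama1 averaged 6.55, 4.49, 5.01, 8.77, 8.86 and 7.40, Lama5 8.55, 9.01, 8.76, 5.89, 4.10 and 3.29, Lamb1 9.76, 9.77, 9.40, 8.82, 5.63 and 4.64 and Lamc1 10.12, 9.11, 9.99, 8.80, 8.01 and 7.98. Lama1 was still above background at day 7, at 7.14, 7.34 and 7.73, and was not called against day 0. Lamb2, the beta2 chain of the neuromuscular synapse, lay between 4.02 and 6.34 on all arrays and was called nowhere. The other laminin chains, Lama2 (muscle and peripheral nerve), Lama4 (endothelium), Lamb3 (skin) and Lamc3, stayed at or near background, with Lama2 highest at 4.83 on 1 day 0 array.

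Markers of extraembryonic endoderm, a cell type of the embryoid body surface that makes laminin and type IV collagen, were read beside these chains. Its transcription factor genes Gata4, Gata6 and Sox17 were under 4 on all 18 arrays, whereas Hnf4a, another of its factors, read 7.55, 8.12 and 2.49 at day 3 and 2.24, 2.24, 4.28 and 2.24 at day 2 (adjusted p = 0.129). Of the 16 listed genes, 3 were at 4 or above on all day 3 arrays (Sox7, Dab2 and Pth1r) and 2 on all day 2 arrays (Dab2 and Pth1r), and the summed linear signal was 1109 to 1990 at day 3 and 190 to 727 at day 2. Pth1r and Sox7 rose at day 3 (log2 fold changes 3.62 and 2.62, adjusted p = 0.000582 and 0.00333), while Ttr and Cubn were raised on day 2 replicate 3 and RA replicate 1 only. The part of these cells in the day 3 values was not tested.

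Cultures at day 7 differed from those at day 4 in another set of chains. Col26a1, Col9a3, Col13a1 and Col9a1 rose and Col18a1 fell, 4 higher and 1 lower of 52 (7.69% and 1.92%), beside 8.81% and 6.58% of all genes. No laminin was called, Lamb1 coming nearest at a log2 fold change of -0.99 and an adjusted p of 0.0106. Col26a1, a secreted collagen with an EMI domain, read 6.13, 5.61 and 7.79 at day 7, against 2.24, 2.51 and 3.00 at day 4, at least 5.70-fold higher (log2 fold change 3.93 ± 0.52, adjusted p = 0.000105). Its second probe set lay near the lowest value on all arrays. Col13a1, a transmembrane collagen of the neuromuscular junction, read 5.57, 5.38 and 4.94 at day 7 and 3.80, 3.09 and 3.80 at day 4, at least 2.45-fold higher (adjusted p = 0.000571). For both genes all day 7 arrays were above background and above every day 4 array.

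The type IX chains sit on cartilage fibrils and also occur in other tissues, among them the eye and ear. Col9a3 read 5.58, 5.52 and 8.91 at day 7 and 2.24, 3.54 and 3.05 at day 4, at least 6.37-fold higher (adjusted p = 0.00605), with replicate 5 far above the other 2 arrays. Without replicate 5 it was at least 2.93-fold higher, and neither of its other 2 probe sets gave the call. For Col9a3 the call was lost on leaving out day 4 replicate 1, day 4 replicate 2, day 4 replicate 3 or day 7 replicate 5 (adjusted p between 0.0122 and 0.0285). At earlier stages it had been at 5.29 to 7.22 (day 0) and 4.99 to 5.56 (day 2), so day 4 was its lowest stage. Col9a1 read 3.54, 3.01 and 4.51 at day 7 and 2.27 on all 3 day 4 arrays (adjusted p = 0.00099), and since only 1 array exceeded 4 no size of change is given. Col9a2, the remaining chain of type IX, lay between 2.24 and 3.15 on all arrays. Of 8 cartilage markers, 0 were at 4 or above on all day 7 arrays and 1, Matn3, on all day 4 arrays. None was called between day 4 and day 7, beside 8.81% higher and 6.58% lower of all genes. Against day 0, Acan, the cartilage proteoglycan aggrecan, and Matn3 were lower at day 7 (25%, beside 13.9% of all genes). On day 7 replicate 5, Cnmd differed by -1.72 log2 units from the mean of replicates 3 and 4. The part of cartilage cells in the type IX values was not tested.

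Replicate 5 stood apart at day 7. There Col9a3 was 3.36 log2 units above the mean of the other 2 arrays, and Col22a1 and Col4a1 were over 2 units below it. Beyond 2 units, 1 chain was thus higher (1.92%) and 2 were lower, beside 0.808% and 0.418% of all genes. On the same array the glial transcription factor gene Sox10 read 11.05, against 6.88 and 9.04 on replicates 3 and 4, and S100b read 6.35, against 2.24 and 2.30. Of the 9 glial genes these and Erbb3 were more than 1 log2 unit higher on replicate 5 than in the mean of replicates 3 and 4, Aqp4 was lower by more than 1 (4.00, against 5.72 and 4.79), and the list's summed linear signal was 20559, against 14821 and 15632. Of these 9 genes, 5 were at 4 or above on all day 7 arrays (Mbp, Sox10, Aqp4, Slc1a3 and Fabp7) and 3 on all day 4 arrays, with a summed linear signal of 14821 to 20559 at day 7 and 1473 to 1656 at day 4, while Mag and Gfap stayed at 2.24. All 5 floor plate and notochord genes measured were above background at day 7, with a summed linear signal of 14501 to 18982, against 2356 to 2690 at day 4. On replicate 5, Foxa1, Foxa2 and Shh differed by -2.43, -2.35 and -1.04 log2 units from the mean of replicates 3 and 4. Spon1 and Ntn1 differed by -0.17 and 0.03. The share of these cell types in the collagen values was not tested.

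**Figure D4:**
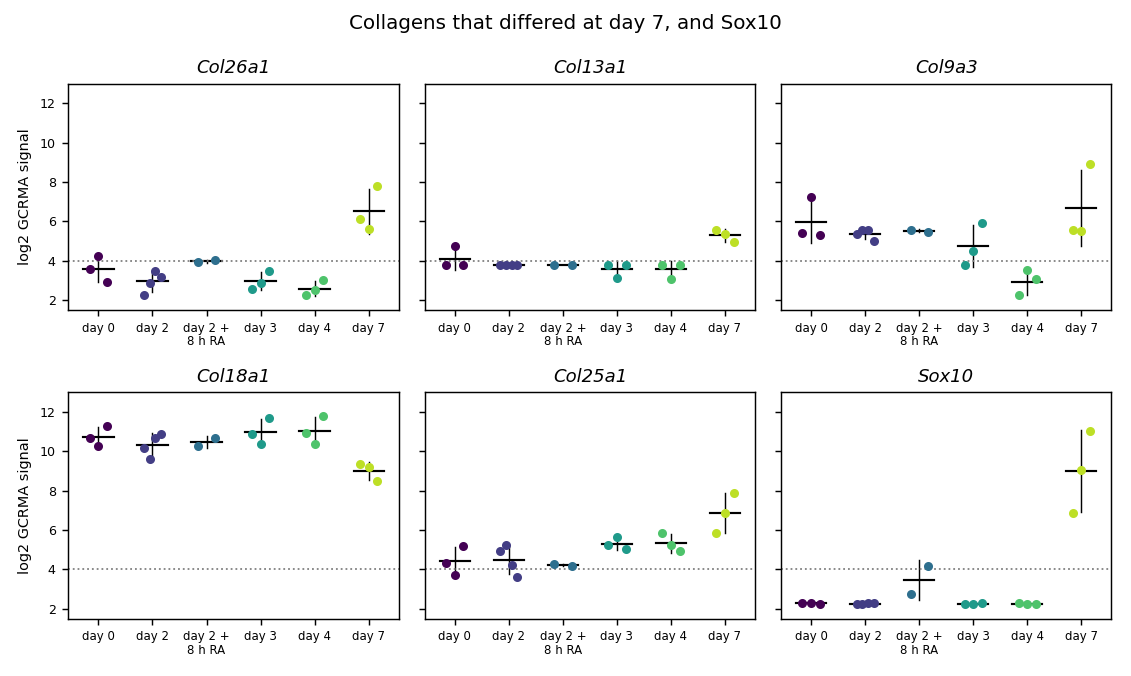
Log2 GCRMA signal of 5 collagens and of the glial transcription factor gene Sox10 by stage, 1 point per array in replicate order from left to right, with the stage mean (bar), SD (vertical line) and background level (dotted). At day 7, Col26a1 and Col13a1 lie above their day 4 arrays, Col18a1 lies below them, and the highest day 7 points of Col9a3 and Sox10 are both replicate 5.

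Col18a1, whose C-terminal end is released as endostatin, was the collagen that fell. It read 9.34, 9.21 and 8.48 at day 7, against 10.95, 10.37 and 11.79 at day 4 (log2 fold change -2.03 ± 0.46, adjusted p = 0.00616, 4.08-fold lower). A second probe set gave the same call with a larger difference. For Col18a1 the call was lost on leaving out day 4 replicate 1, day 4 replicate 3, day 7 replicate 3, day 7 replicate 4 or day 7 replicate 5 (adjusted p between 0.012 and 0.0294). Before day 7 its arrays lay between 9.60 and 11.79.

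Day 7 cells set against ES cells gave 5 higher and 7 lower of 52 chains (9.62% and 13.5%), beside 14.3% and 13.9% of all genes. The higher ones were Col2a1, Col26a1, Col25a1, Col9a1 and Col13a1. Col2a1, the type II collagen of cartilage and notochord, which also occurs in the embryonic neuroepithelium, read 8.63, 8.55 and 6.95 at day 7 and 5.35, 3.76 and 5.51 at day 0 (log2 fold change 3.17 ± 0.73, adjusted p = 0.00431). For Col2a1 the call was lost on leaving out day 0 replicate 2, day 0 replicates 2 and 3, day 7 replicate 3 or day 7 replicate 4 (adjusted p between 0.0203 and 0.0806). Its levels between were not in stage order, with 5.35, 5.16, 6.75 and 7.26 at day 2, 8.11 and 7.44 with RA, 7.62, 6.84 and 8.25 at day 3 and 5.73, 5.69 and 7.40 at day 4. Col25a1, a transmembrane collagen that motor neurons need to innervate muscle in mice, read 5.86, 6.89 and 7.87 at day 7 and 4.34, 3.72 and 5.19 at day 0 (log2 fold change 2.46 ± 0.54, adjusted p = 0.00303), and its other probe set lay near the lowest value. For Col25a1 the call was lost on leaving out day 0 replicate 1, day 0 replicate 2, day 0 replicates 2 and 3, day 7 replicate 4 or day 7 replicate 5 (adjusted p between 0.0109 and 0.0264). Against day 4, where it read 5.85, 5.25 and 4.91, its adjusted p was 0.0665. Col26a1 and Col13a1 were higher than at day 0, where they lay around background at 3.56, 4.25 and 2.92 and at 3.80, 4.75 and 3.77, so that the size of these differences is not firm (adjusted p = 0.000607 and 0.00514). For Col13a1 the call was lost on leaving out day 0 replicate 1, day 0 replicate 3, day 7 replicate 3 or day 7 replicate 4 (adjusted p between 0.0199 and 0.0268).

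Of the 3 collagens lower at day 7, 2 were the chains of type I. Col1a1 read 4.89, 4.27 and 5.23 at day 7, against 8.76, 9.62 and 11.58 at day 0 (log2 fold change -5.19 ± 0.77, adjusted p = 0.00014). Col1a2 read 2.83, 2.87 and 2.62 at day 7, against 4.28, 8.25 and 8.71 at day 0, at least 8.44-fold lower (adjusted p = 0.00337), a call that neither of its other 2 probe sets gave. Col5a3, called near the lowest values, was the other, and its call was lost without day 0 replicate 1. For Col1a2 the call was lost on leaving out day 0 replicate 2, day 0 replicate 3, day 0 replicates 2 and 3, day 7 replicate 3, day 7 replicate 4 or day 7 replicate 5 (adjusted p between 0.0109 and 0.256). Without day 0 replicate 1 the lower chains numbered 11, and without replicates 2 and 3 together the higher chains numbered 1, Col13a1, and Col1a2 was not called.

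**Figure D5:**
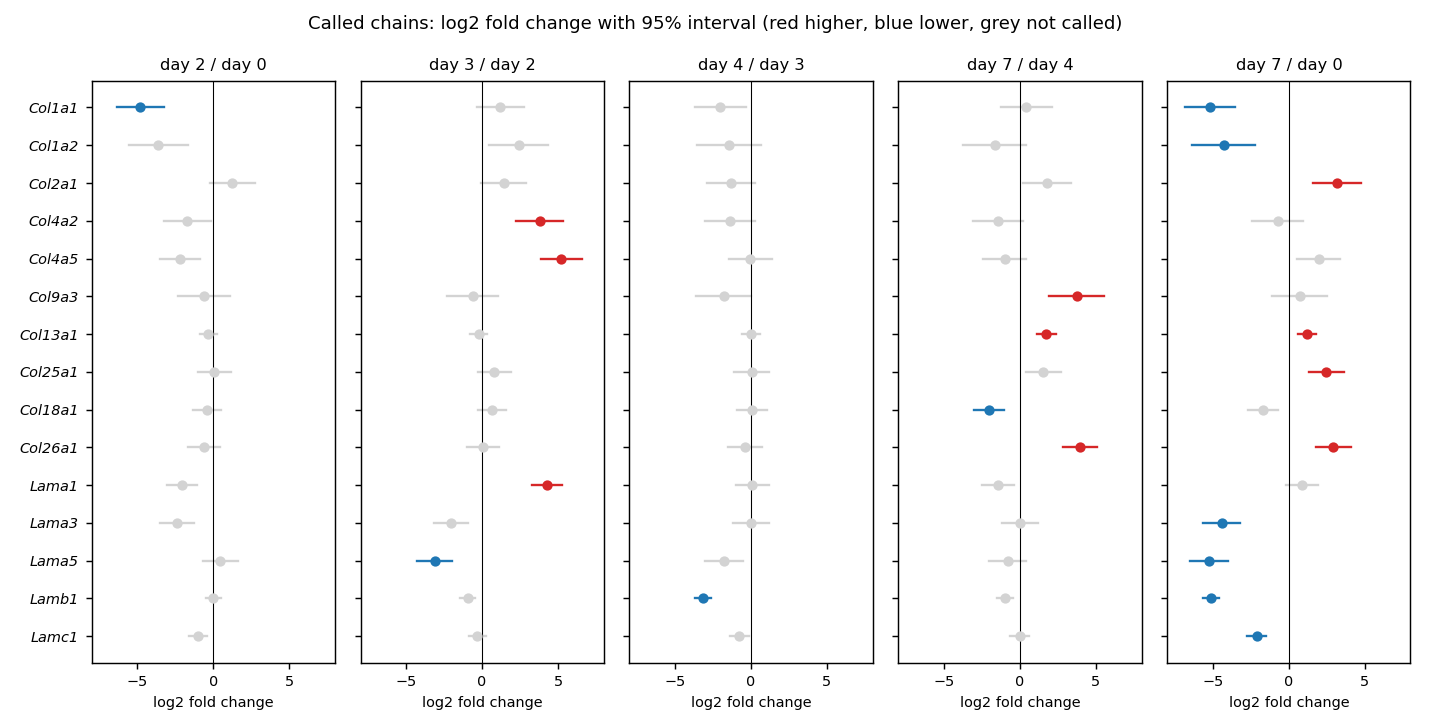
Log2 fold change (points) with 95% interval (lines) of the 15 chains that were above background at a stage and called in at least 1 comparison, for 5 comparisons with the later stage over the earlier, red where higher, blue where lower and grey where not called. Laminin calls fall at day 3, day 4 and day 7 against day 0, and the collagen calls at day 7 against day 4 have no laminin among them.

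The remaining chains that were above background were called in none of the comparisons of stages. Col11a1, a fibril-nucleating chain, varied over the 6 stages by the F test, with means of 3.43, 2.96, 2.98, 4.81, 5.64 and 5.43 from day 0 to day 7, and was 2.00 ± 0.55 log2 units higher at day 7 than at day 0 (adjusted p = 0.0131). Col5a1 lay between 4.28 and 8.13 on all arrays, and Col22a1, a collagen of muscle-tendon junctions, between 5.54 and 9.25. Col19a1 lay between 2.68 and 6.57. Another array stood out for connective tissue chains. On day 3 replicate 3, Col1a1 read 8.12, Col6a1 5.95, Col12a1 6.72 and Col5a2 5.22, each over 2 log2 units above the mean of replicates 1 and 2 (7.69% of chains, 0.539% of all genes). There Acta2 and Tagln read 9.89 and 10.90, against 2.96 and 7.46 on replicate 1 and 3.19 and 6.98 on replicate 2. They were the only 2 of the 13 fibroblast markers more than 1 log2 unit higher there, Dcn was lower by more than 1, and the median difference of the list was 0. The list's summed linear signal was 2980 on replicate 3, against 383 and 316 on replicates 1 and 2. Of the 10 muscle genes, Actc1 and Acta1 were also more than 1 log2 unit higher there (by 3.44 and 4.23). None was lower by more than 1, and the median difference was -0.007. The muscle list's summed linear signal was 210 on replicate 3, against 62.6 and 62.1. The part of either list in the collagen values was not tested.

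Of 20 partners that bind laminin or type IV collagen in the basement membrane, 2 were higher and 5 lower at day 7 than at day 0 (10% and 25%), beside 14.3% and 13.9% of all genes. The nidogens Nid2 and Nid1, which bridge the laminin and collagen networks, had log2 fold changes of -5.11 and -4.45, the proteoglycan gene Hspg2 (perlecan) -4.72 and the fibronectin gene Fn1 -4.41. Nid1 fell early, at 8.35, 8.10, 7.97 and 7.42 at day 2 and 11.57, 11.70 and 11.36 at day 0. Ntn4, a netrin that binds laminin, rose by day 7, with 6.70, 5.93 and 5.69, against 2.41, 2.38 and 2.46 at day 0. At day 3, when Col4a2 and Lama1 rose, none of the 20 was called against day 2, beside 3.4% higher and 3.22% lower of all genes. Between day 4 and day 7 Sparc, Ntn4 and Agrn (agrin, the organiser of the neuromuscular synapse) rose, with log2 fold changes of 2.52, 2.17 and 1.10. These are 3 of the 20 (15%), with none lower, beside 8.81% higher and 6.58% lower of all genes.

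Of 28 genes of collagen synthesis and crosslinking, 5 were higher and 5 lower at day 7 than at day 0 (17.9% each), near the 14.3% and 13.9% of all genes. Pcolce, the enhancer of procollagen C-proteinase, fell most, at 2.49, 3.22 and 2.91 at day 7 and 10.67, 10.56 and 10.74 at day 0, and was called lower at day 2 and again at day 3. It was high on all 3 day 0 arrays, unlike Lox. P4ha3, a prolyl 4-hydroxylase subunit, and Bmp1, the procollagen C-proteinase, rose at day 7, with log2 fold changes against day 4 of 5.06 and 2.57. They were the only 2 of the 28 called at that step (7.14% higher), beside 8.81% higher and 6.58% lower of all genes. P3h2, a prolyl 3-hydroxylase that acts on type IV collagen, read 8.12, 7.90 and 8.26 at day 3, against 4.96, 5.13, 6.26 and 5.53 at day 2, and was called lower again at day 4 (5.34, 6.14 and 6.02). It was thus highest at the stage at which Col4a1 and Col4a2 were highest, and a link between them was not tested. P3h2 had already been called higher at day 2 than at day 0, where Col4a1 and Col4a2 were not called (log2 fold changes 0.17 and -1.71). At that step 3 of the 28 were higher and 1 lower (10.7% and 3.57%), beside 1.67% and 2.15% of all genes. At day 3 the list had 2 higher and 2 lower (7.14% each), beside 3.4% and 3.22%. Adamts3, a procollagen N-proteinase, read 9.74, 9.54 and 8.64 at day 3, against 4.55, 5.07, 6.03 and 5.47 at day 2 (log2 fold change 4.03).

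Of 14 collagen and laminin receptors, only Itga6 (7.14%), the laminin-binding integrin alpha6, was called, lower at day 7 than at day 0 (10.24, 10.05 and 9.95, against 12.54, 12.45 and 11.79), and the dystroglycan gene Dag1 lay between 9.70 and 10.51 throughout. Of 17 matrix proteases and inhibitors, 4 (23.5%) were higher at day 7 than at day 0, among them Timp4 and Timp3 with log2 fold changes of 4.74 and 3.88, and 2 (11.8%) were lower, Timp1 (-6.74) and Reck (-1.84), beside 14.3% and 13.9% of all genes. Mmp11, a secreted metalloprotease, rose between day 4 and day 7, with 9.74, 9.26 and 8.24 at day 7 and 3.80, 3.98 and 5.30 at day 4. At that step 3 of the 17 were higher (17.6%) and none lower, beside 8.81% and 6.58% of all genes. None of these 4 lists held a call after 8 h of RA, beside 0.308% higher and 0.0605% lower of all genes.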

How the data were processed

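RNA was amplified (Ovation) and hybridised to Affymetrix mouse arrays. Before deposit the authors normalised all arrays together by GCRMA, which gave signals on the log2 scale, so probe background had been modelled and the arrays normalised to each other. Of these, 45037 probe sets were tested after 64 controls were left out, 34945 with 1 gene symbol, 932 with several and 9160 with none. limma 3.58.1 in R 4.3.3 fitted 6 stage means to the 18 arrays, with Benjamini-Hochberg adjustment over all probe sets. A call needed an adjusted p under 0.01 and at least 2-fold on the gene's brightest probe set. Where all arrays of a stage were under 4, its mean was set to 4 and the fold given as "at least". The script was tested on simulated data. Figures used Python 3.11.15 and matplotlib 3.10.9.

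Members were taken by gene symbol and not by their values. That rule and all gene lists were chosen with earlier results of these data known, so no list supports another result. Every called chain is named, per-array values are given for the up to 5 called chains per direction with the largest change and for the chain of widest range in each role group, and of other lists up to 4 called genes per comparison. Chains and other genes named beside these were chosen after their values were seen. Same-numbered arrays of day 2, day 3 and day 4 deviated together (r = 0.482, 0.345 and 0.476 between day 2 and day 3, and 0.641, 0.422 and 0.746 between day 3 and day 4). Between day 0 and day 2 the r values were 0.214, -0.203 and -0.129, and between RA and day 2 they were -0.224 and -0.449. They were -0.177 between day 4 and day 7 and -0.0839 between day 0 and day 7. The labels do not say what a replicate number stands for. The block in the fit to all arrays groups every stage by these numbers. The fit reported has no replicate block, a term that the study's methods do not mention, and the blocked fits are alternatives. The number of arrays limits the precision.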

Additional observations from a re-analysis of the deposited data

How the results depend on the processing

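Of 416 pairs of a called chain and an alternative, 321 kept the call, 95 lost it and 0 changed direction. The share of all genes called was counted only for the fit reported, so the numbers of chains below stand without it. The calls for Lama5, Lamb1 and Lamc1 at day 7 against day 0 held under all 17 alternatives run for them. Fitting only the arrays of both compared stages left 0 chains lower at day 2 against day 0, 1 higher and 0 lower at day 3, 0 lower at day 4, 0 higher and 0 lower at day 7 against day 4, and 0 higher and 4 lower at day 7 against day 0. With the replicate number as a block in the fit to all arrays, 1 chain was lower at day 2 against day 0 and Col9a3 was lost at day 7 against day 4 (adjusted p = 0.0238). Against day 0, the block also lost Col13a1, Col1a2, Col25a1 and Col5a3 at day 7, and it changed no call at day 3 or day 4. In the fit to the compared stages alone, the replicate block, added after seeing the data, left 0 higher and 0 lower at day 3 and 0 lower at day 4. The fits to single pairs of stages also hold fewer arrays, and the cause of these losses was not tested.

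Leaving out dim probe sets gave 4 lower at day 2 against day 0 and 2 lower at day 3. Raising values to 4 gave 2 higher at day 7 against day 4, and quantile normalisation and median centring gave 2 lower each there. Counting any probe set gave 5 higher at day 3. Averaging probe sets gave 1 lower at day 2, 5 higher at day 3 and 2 higher at day 7 against day 4. Without probe sets of the s, x and a types, 2 were higher at day 7 against day 4 and 3 against day 0. At an adjusted p under 0.05 there were 6 lower at day 2, 5 higher and 2 lower at day 3, and 8 higher and 12 lower at day 7 against day 0.

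Leaving out 1 array at a time gave 1 to 7 lower at day 2 against day 0 (7 without day 0 replicate 1), 2 to 3 higher and 0 to 2 lower at day 3, 1 lower at day 4, 3 to 5 higher and 0 to 1 lower at day 7 against day 4, and 3 to 5 higher and 6 to 11 lower at day 7 against day 0. Splits by array added after seeing the data gave, without day 0 replicates 2 and 3, 1 lower at day 2 and 1 higher at day 7 against day 0. Without day 2 replicates 1 and 2 there were 2 lower at day 3 (Lama3 and Lama5), and without day 2 replicates 3 and 4 there were 0. Signals under 4 cannot be told from background, so differences among them have no firm size.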
